A study of Mus musculus with 6 samples.

Results

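The imprinted growth genes described here are 10 mouse genes expressed from one parental copy in mesenchymal tissue: H19, Dlk1, Meg3, Peg3, Mest, Plagl1, Cdkn1c, Grb10, Ndn and Peg10. They were chosen by name, with earlier results of these data known. Their rows were looked up by gene symbol in the deposited table of 22134 genes. Of the 10 symbols 8 had a row. The long non-coding RNA genes H19 and Meg3 matched no row and were not analysed here. Of the 8 genes 7 passed the filter on low values, which asked for 1 FPKM or more in 3 or more libraries, and Dlk1 did not.

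In genomic imprinting, DNA methylation laid down in the egg or sperm makes the transcription of a gene copy depend on the parent it came from. Many imprinted genes regulate fetal growth, and several of them act on the growth of preadipocytes, the fibroblast-like precursors of fat cells. In general, H19, Meg3, Cdkn1c and Grb10 are transcribed from the maternal copy, and Dlk1, Peg3, Mest, Plagl1, Ndn and Peg10 from the paternal copy. The parental origin of transcripts was not measured in these data.

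RNA was sequenced from adipose tissue of mice whose genotype is given as WT. There were 3 samples of creeping fat, the fat that wraps an injured bowel, from animals with repeated colonic cautery injury, and 3 samples of mesenteric adipose tissue from animals with no injury (control). The labels give no age, sex, strain or time after injury, and they do not state that each sample is a different animal. The p-values therefore reflect sample-to-sample spread, part of which may be technical. Values are FPKM, fragments scaled by the gene's length and by the library's total. Library totals recovered from the values lay between 32837045 and 36158204 reads in creeping fat and between 31186018 and 43415696 reads in controls.

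Transcripts of other tissues were present and moved with the groups. Summed FPKM of the 10 measured seminal vesicle genes made up 5.12% to 9.15% of all FPKM in creeping fat libraries and 0.0164% or less in control libraries. The 16 genes of the pancreatic acinar list held 0.0042% to 1.51% in creeping fat, where creeping fat 2 held the most, and 4.63% to 11.9% in controls. The labelled adipose tissue was checked with 12 adipocyte genes, all above 0 in both groups, which held 0.349% to 0.85% in creeping fat and 1.51% to 4.25% in controls.

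Grb10, Cdkn1c and Ndn were higher in creeping fat, and Peg3 was lower. Peg10, Plagl1 and Mest did not pass the test. In the fit to all 12812 tested genes, 3 of the 7 tested members were called higher and 1 was called lower in limma at a Benjamini-Hochberg adjusted p under 0.05. Of all tested genes 9.35% were called higher and 6.81% lower. The median log2 fold change of the 7 tested members was 0.23, against 0.017 for all tested genes. That median is the value of Plagl1 (SE 0.41), and it does not show a shift of the members. Without control 2 Plagl1 stood at -0.255, and the median of all tested genes was 0.13. These comparisons describe the members and do not test them as a set. Fold changes are creeping fat minus control on the scale of log2(FPKM + 1), which understates the change of genes with low values. Because the samples are whole tissue, more cells of a type and more RNA per cell cannot be told apart.

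**Figure D1:**
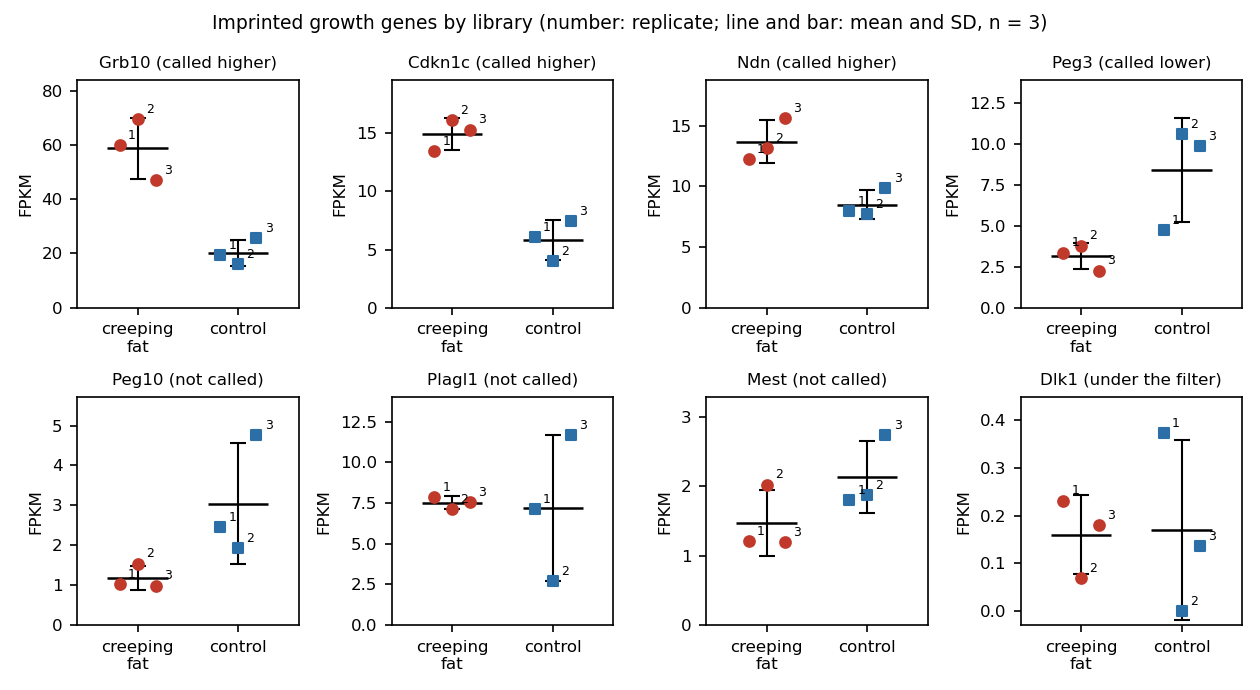
FPKM (y axis, each gene with its own scale) of the 8 measured imprinted growth genes in the 3 creeping fat libraries (red circles, left) and the 3 control libraries (blue squares, right), with the mean as a line and the SD as a bar. The groups do not overlap in Grb10, Cdkn1c and Ndn, which are higher in creeping fat, nor in Peg3 and Peg10, which are lower, and they overlap in Plagl1, Mest and Dlk1.

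Grb10 encodes an adaptor protein that binds the activated insulin and IGF1 receptors and dampens their signalling. With Mest left aside, whose deposited level is not comparable for a reason of gene length given with it, Grb10 was the most abundant member, above 93.1% of the genes with any reads by mean FPKM. Grb10 had 59.8, 69.4 and 47.1 FPKM in creeping fat 1 to 3, against 19.5, 16.0 and 25.5 FPKM in control 1 to 3. Every creeping fat library lay above every control library. The means were 58.8 ± 11.2 FPKM in creeping fat and 20.3 ± 4.81 FPKM in controls (SD, n = 3 each), a ratio of 2.89. Grb10 rose by 1.49 ± 0.22 on the log2 scale (SE; limma, adjusted p = 0.00709), and it was called under all 17 other settings tried, with log2 fold changes of 1.21 to 1.66. In reads, Grb10 had 11330, 12703 and 8109 in creeping fat and 3969, 2619 and 5807 in controls, so counting error is small beside the spread between libraries.

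Grb10 lies on chromosome 11 from 11930499 to 12037428 on the minus strand (GRCm38.p6). It is known to be transcribed from the maternal copy in most tissues through an upstream promoter, and from the paternal copy in neurons through promoters further downstream. RefSeq gives 2 starts for it, and the windows from 250 bases before to 50 bases after each are shown. Which transcripts the deposited row covers is not given, and whether the downstream start is a neuronal promoter was not tested. Both sequences run 5′ to 3′ on the gene's strand with CpG dinucleotides, the target of methylation, in capitals. The upstream window, chr11:12037371-12037670, is 80.0% G and C and holds 45 CpGs, more than 98.1% of the 32851 promoter windows in the RefSeq table, whose median is 7. The downstream window, chr11:12027922-12028221, is 52.3% G and C and holds 9.
Grb10 upstream start: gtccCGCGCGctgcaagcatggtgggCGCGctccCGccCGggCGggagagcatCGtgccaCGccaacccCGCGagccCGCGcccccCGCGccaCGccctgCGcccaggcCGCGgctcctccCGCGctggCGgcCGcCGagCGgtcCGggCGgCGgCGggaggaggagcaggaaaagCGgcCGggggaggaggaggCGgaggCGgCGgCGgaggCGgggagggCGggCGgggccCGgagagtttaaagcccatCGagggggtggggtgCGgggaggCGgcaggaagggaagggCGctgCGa
Grb10 downstream start: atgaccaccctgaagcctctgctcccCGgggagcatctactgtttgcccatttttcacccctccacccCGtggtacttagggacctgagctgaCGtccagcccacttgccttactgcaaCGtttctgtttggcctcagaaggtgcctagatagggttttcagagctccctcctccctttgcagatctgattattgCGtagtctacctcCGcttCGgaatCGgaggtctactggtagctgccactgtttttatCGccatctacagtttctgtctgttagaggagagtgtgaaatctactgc
The FPKM of the gene does not show which of these starts was used.

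Cdkn1c encodes p57Kip2, an inhibitor of cyclin-dependent kinases that holds cells out of division. It had 13.4, 16.1 and 15.3 FPKM in creeping fat 1 to 3, against 6.04, 4.02 and 7.44 FPKM in control 1 to 3. The lowest creeping fat library was well above the highest control library. Cdkn1c averaged 14.9 ± 1.36 FPKM in creeping fat and 5.84 ± 1.72 FPKM in controls (SD, n = 3 each), a ratio of 2.56. It rose by 1.25 ± 0.21 (SE; limma, adjusted p = 0.0106) and was called under all 17 other settings, with adjusted p of up to 0.049 (without creeping fat 3). Cdkn1c is on chromosome 7 from 143458339 to 143461059, in the imprinted domain that also holds Phlda2. Phlda2, which restrains placental growth, was at 0.102 to 0.132 FPKM in creeping fat and at 0 to 0.118 FPKM in controls, too low to be tested.

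Ndn encodes necdin, a protein of the MAGE family that restrains proliferation and, in mouse preadipocytes, differentiation into fat cells. Ndn had 12.2, 13.2 and 15.6 FPKM in creeping fat 1 to 3, against 7.94, 7.73 and 9.83 FPKM in control 1 to 3. The groups did not overlap, but the nearest libraries, creeping fat 1 and control 3, were close. The means were 13.7 ± 1.75 FPKM in creeping fat and 8.50 ± 1.16 FPKM in controls (SD, n = 3 each), a ratio of 1.61. Ndn rose by 0.63 ± 0.16 (SE; limma, adjusted p = 0.0386). The call depended on the setting: it was lost under 10 of 17 other settings, all of which kept the direction, with adjusted p of 0.0268 to 0.15 over the 17. With 1 library left out, the adjusted p of Ndn was 0.0933, 0.113 and 0.15 when that library was creeping fat 1, 2 and 3, and 0.103 and 0.0674 when it was control 1 and 3. With voom, limma's method for counts, on reads recovered from the FPKM, the adjusted p was 0.0528. Voom called 2 members higher (9.36% of all genes were) and 1 lower (6.81% of all genes were).

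Ndn is a gene without introns on chromosome 7 from 62348277 to 62349928, in the domain whose human counterpart is lost in Prader-Willi syndrome. The length at which its FPKM became whole reads, 1652 bases, was its whole RefSeq span. Its promoter window is shown with that of Peg3, the member that moved the other way, again with CpGs in capitals.
Ndn, chr7:62348027-62348326: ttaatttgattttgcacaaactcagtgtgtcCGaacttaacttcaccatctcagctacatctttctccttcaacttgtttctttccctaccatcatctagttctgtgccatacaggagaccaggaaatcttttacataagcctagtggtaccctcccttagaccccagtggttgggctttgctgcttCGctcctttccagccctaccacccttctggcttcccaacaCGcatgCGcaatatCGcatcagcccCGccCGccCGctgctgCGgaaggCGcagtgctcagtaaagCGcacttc
Peg3, chr7:6730370-6730669: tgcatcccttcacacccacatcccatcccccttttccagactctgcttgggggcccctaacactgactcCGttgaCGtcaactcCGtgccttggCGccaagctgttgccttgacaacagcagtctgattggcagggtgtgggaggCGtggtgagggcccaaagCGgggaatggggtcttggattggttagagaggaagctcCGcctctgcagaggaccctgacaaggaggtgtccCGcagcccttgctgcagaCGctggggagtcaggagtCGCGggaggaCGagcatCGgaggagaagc
The Ndn window holds 11 CpGs and the Peg3 window 13. PLAGL1, the protein of the member Plagl1, binds G-rich sites whose core is GGGGCCCC, the same on both strands. These letters occur in 354 (1.08%) of the 32851 windows. Among the 11 windows of 7 members found in the RefSeq table, Peg3 alone held them, once, starting 201 bases before the start of transcription. A match is a description of the letters and not a bound site.

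Peg3 encodes a large zinc finger protein, also called PW1, that marks progenitor cells in several mouse tissues. Peg3 had 3.37, 3.79 and 2.27 FPKM in creeping fat 1 to 3, against 4.74, 10.6 and 9.85 FPKM in control 1 to 3. All creeping fat libraries were lower than all control libraries, with control 1 nearest to them. The means were 3.14 ± 0.786 FPKM in creeping fat and 8.39 ± 3.18 FPKM in controls (SD, n = 3 each). Peg3 fell by 1.13 ± 0.30 (SE; limma, adjusted p = 0.0476), just inside the threshold, and the call was lost under 7 of 17 other settings. With 1 library left out, the adjusted p of Peg3 was 0.131, 0.0902 and 0.159 when that library was creeping fat 1, 2 and 3, and 0.165 when it was control 3. It was 0.0618 when values were rescaled without the genes of seminal vesicle, prostate and pancreas. The log2 fold change of Peg3 stayed between -1.45 and -0.95 throughout. Peg3 lies on chromosome 7 from 6703892 to 6730462 on the minus strand. Its imprinted neighbours Zim1 and Usp29 were under the filter, at up to 0.364 and 0.0369 FPKM in creeping fat and up to 0.831 and 0.0218 FPKM in controls.

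Peg10 is a gene derived from a retrotransposon that is needed for the mouse placenta. It had 1.02, 1.54 and 0.987 FPKM in creeping fat 1 to 3, against 2.45, 1.92 and 4.76 FPKM in control 1 to 3. The groups did not overlap, yet the test was not passed: the log2 fold change of Peg10 was -0.84 ± 0.27 (SE; limma, adjusted p = 0.0864), with an interval of -1.49 to -0.19 (95%, not adjusted). It passed without control 2 (-1.04, adjusted p = 0.0168) and without both creeping fat 2 and control 2 (-1.16, adjusted p = 0.0111), and under no other setting of 16. Without control 2 the calls over all tested genes also grew, to 22.6% higher and 14.5% lower, and the median log2 fold change of all tested genes was 0.13. In all, 3 members lay above and 2 lay below the controls in every creeping fat library, where 20.2% and 16.9% of all tested genes did. Peg10 lies on chromosome 6 from 4747306 to 4760517, next to Sgce, which shares its imprinted promoter region and encodes epsilon-sarcoglycan. Sgce had 17.1, 14.6 and 15.9 FPKM in creeping fat and 24.1, 9.51 and 23.9 FPKM in controls, so its groups overlapped (-0.15 ± 0.34, adjusted p = 0.818). Its result rested on single controls: Sgce was called lower without control 2 (-0.57, adjusted p = 0.011) and without both creeping fat 2 and control 2 (-0.515, adjusted p = 0.0299), and its log2 fold change was 0.057 without control 1 and 0.052 without control 3.

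Plagl1, also called Zac1, encodes a zinc finger transcription factor that slows proliferation and in mouse activates other imprinted genes, Cdkn1c and H19 among them. It had 7.88, 7.10 and 7.56 FPKM in creeping fat 1 to 3, against 7.14, 2.70 and 11.7 FPKM in control 1 to 3. The creeping fat libraries sat close together inside the range of the controls, which were spread widely. The log2 fold change of Plagl1 was 0.23 ± 0.41 (SE; limma, adjusted p = 0.771), and its 95% interval of -0.76 to 1.21 leaves room for a change of either sign. Control 2 decided the sign, which was negative without it (-0.26, adjusted p = 0.34). Plagl1 lies on chromosome 10 from 13090832 to 13131694.

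Mest encodes a hydrolase-like protein of the endoplasmic reticulum whose level in mouse fat tracks the expansion of fat cells. It had 1.21, 2.02 and 1.19 FPKM in creeping fat 1 to 3, against 1.79, 1.87 and 2.73 FPKM in control 1 to 3. Creeping fat 2 lay among the controls. The log2 fold change of Mest was -0.34 ± 0.20 (SE; limma, adjusted p = 0.315), with a 95% interval of -0.83 to 0.14. The FPKM of Mest were divided by an unusually long gene model: whole reads came out at a length of 31852 bases, against 3945 bases of exon in GENCODE M21 and a RefSeq span of 14961 bases (chromosome 6, 30733506 to 30748466). With the GENCODE length its mean would be 11.9 FPKM in creeping fat and 17.2 FPKM in controls, so its deposited level cannot be ranked against those of other members. Mest overlaps Copg2 on the opposite strand at its 3′ end, and the use of strand in counting was not stated, so reads of both genes cannot be told apart there. Copg2, a coat protein gene of the secretory pathway, stood at 4.67 to 5.02 FPKM in creeping fat and 5.98 to 7.86 FPKM in controls (-0.39 ± 0.15, limma adjusted p = 0.123), and was called lower without control 2 (-0.455, adjusted p = 0.037).

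Dlk1 encodes a transmembrane protein, Pref-1, that keeps mouse preadipocytes from becoming fat cells. It was low in both groups. Dlk1 had 0.231, 0.07 and 0.18 FPKM in creeping fat 1 to 3, against 0.372, 0 and 0.136 FPKM in control 1 to 3, which are 41, 12 and 29 reads in creeping fat and 71, 0 and 29 reads in controls. The groups overlapped, and the gene was under the filter and not tested. The 0 in control 2 allows up to 0.0196 FPKM, the value of 3 reads, counting error only. By deposited FPKM, with Mest left aside, the order in creeping fat was Grb10, Cdkn1c, Ndn, Plagl1, Peg3 and Peg10, and of these neighbours Cdkn1c and Ndn overlapped. In controls the order was Grb10, Ndn, Peg3, Plagl1, Cdkn1c and Peg10, and below Grb10 each gene overlapped with the next. These orders hold for the gene lengths behind the deposited values.

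**Figure D2:**
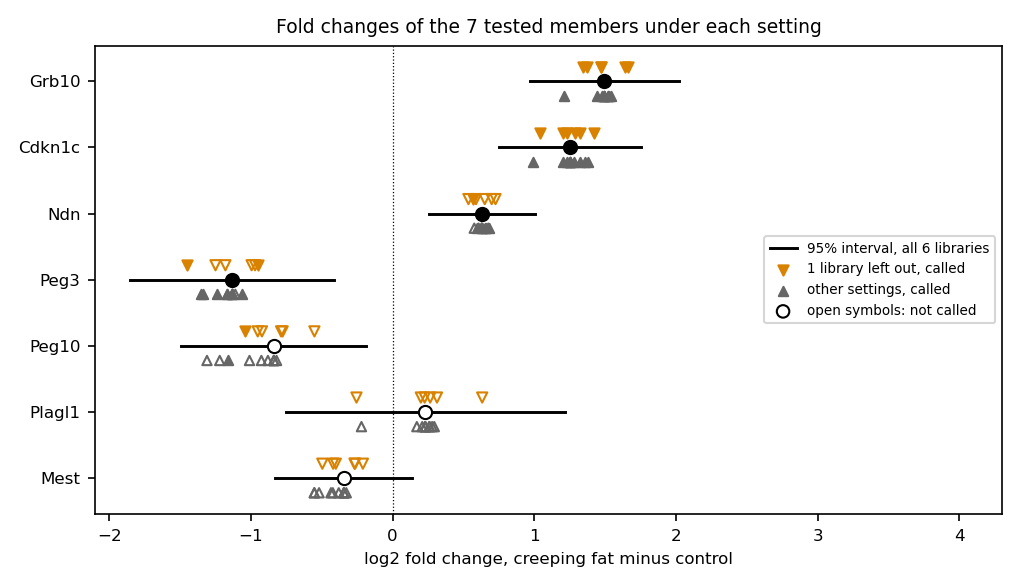
Log2 fold changes (x axis, creeping fat minus control) of the 7 tested members, with all 6 libraries (black, with 95% interval), with each library left out in turn (orange, above) and under the other settings (grey, below); filled symbols passed an adjusted p under 0.05. Grb10 and Cdkn1c are filled throughout, Ndn and Peg3 are filled in part, and the points of Plagl1 lie on both sides of 0.

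Rtl1 and Dio3, of the same imprinted domain on chromosome 12 as Dlk1, were also measured. Rtl1, a gene derived from a retrotransposon and needed in fetal vessels of the mouse placenta, had 6.33, 7.71 and 5.93 FPKM in creeping fat 1 to 3, against 1.42, 1.62 and 1.87 FPKM in control 1 to 3. Rtl1 rose by 1.54 ± 0.16 (SE; limma, adjusted p = 0.00232), with no overlap of the groups. Its recovered length was 30955 bases, and it is overlapped by antisense transcripts. Its RefSeq span (109564900 to 109604418, minus strand) overlaps that of the member Meg3 (109540996 to 109571729, plus strand). Without a stated strand setting the reads of Rtl1 may not all be its own and may hold reads of Meg3. Dio3, the deiodinase that inactivates thyroid hormone, had 2.40, 4.06 and 0.897 FPKM in creeping fat 1 to 3, against 0.303, 0.567 and 0.444 FPKM in control 1 to 3. All its creeping fat libraries were above the controls, but the gene was under the filter and not tested.

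Beyond the members, a list of 65 other imprinted genes had 33 tested members, of which 4 rose, 6 fell and 23 did not pass, with a median log2 fold change of -0.12. Of all tested genes 9.35% rose and 6.81% fell. Leaving out 1 library at a time gave 3 to 6 called higher and 3 to 9 lower, the most without control 2. Without control 2, 22.6% of all tested genes were called higher and 14.5% lower. The 4 that rose were Igf2r, Dcn, Osbpl5 and, with the limit of strand given above, Rtl1. Igf2r, the receptor that carries IGF2 to the lysosome for breakdown, had 50.3, 45.4 and 51.5 FPKM in creeping fat, against 21.6, 18.8 and 20.8 FPKM in controls, and rose by 1.23 ± 0.13 (limma, adjusted p = 0.00277). Dcn, which encodes the matrix proteoglycan decorin, rose by 1.70 ± 0.23 (adjusted p = 0.0051). The 6 that fell were Nnat, Slc22a3, Nap1l5, Blcap, Pon3 and Ppp1r9a. Rtl1, Igf2r, Dcn, Nnat, Slc22a3 and Nap1l5 were called under every other setting that tested them, while Osbpl5, Blcap, Pon3 and Ppp1r9a lost the call under 8, 7, 9 and 4 of up to 17. Nnat, which encodes neuronatin, a small membrane protein of the endoplasmic reticulum also made in fat cells, had 18.9, 24.9 and 27.2 FPKM in creeping fat 1 to 3, against 120.5, 194.3 and 494.8 FPKM in control 1 to 3. Nnat fell by 3.22 ± 0.49 (adjusted p = 0.00754) and lies within an intron of Blcap, which fell by 0.95 ± 0.22 (adjusted p = 0.0317). Slc22a3, an organic cation transporter, fell by 2.74 ± 0.34 (adjusted p = 0.00403). Cd81 and Gnas, the most abundant that did not pass, stood at 0.13 ± 0.16 and 0.10 ± 0.17.

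Igf2, the fetal growth factor that is coregulated with H19, had 11.5, 2.96 and 5.33 FPKM in creeping fat 1 to 3, against 8.73, 4.09 and 7.36 FPKM in control 1 to 3. The groups overlapped widely (-0.13 ± 0.44, limma adjusted p = 0.886).

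Tested genes were split by the copy from which they are known to be expressed. Both maternally expressed members that were tested rose, and of the 5 paternally expressed members 1 rose and 1 fell. Among the other imprinted genes of known copy, 2 of 15 maternally expressed genes rose and 2 fell, and 1 of 9 paternally expressed genes rose and 2 fell, with medians of -0.11 and -0.13. The paternally expressed gene that rose was Rtl1, whose reads may hold reads of the maternally expressed Meg3, as given above. These counts are from all 6 libraries, where 9.35% of all tested genes rose and 6.81% fell. Some of these genes are imprinted only in certain tissues, such as the placenta or brain.

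**Figure D3:**
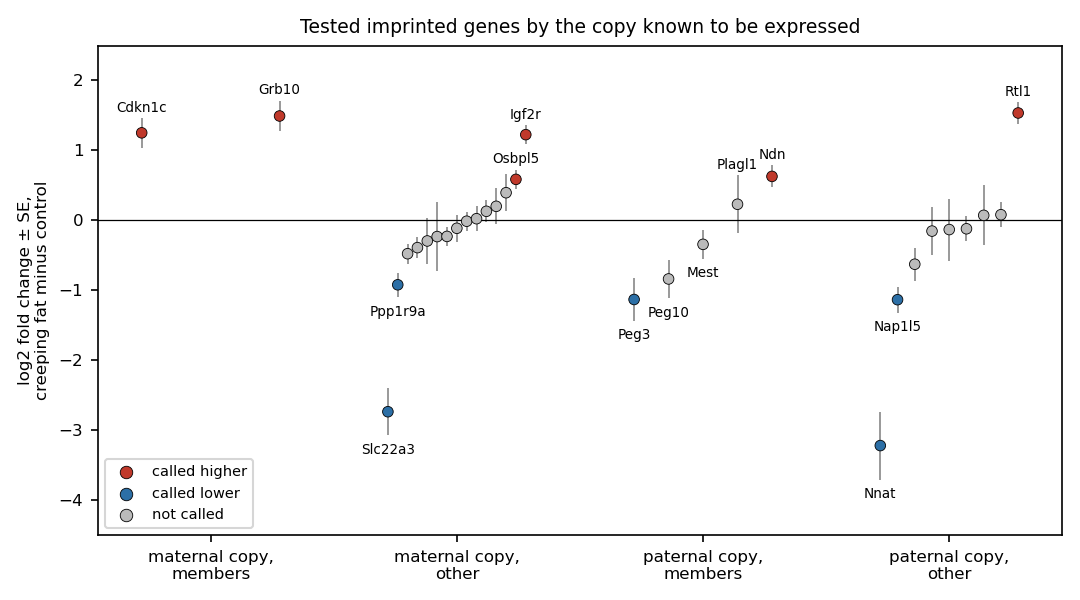
Log2 fold change ± SE (y axis, creeping fat minus control) of tested imprinted genes, grouped on the x axis by the copy known to be expressed and by whether they are among the 10 growth genes; red points were called higher, blue lower and grey neither. Members lie between -1.13 (Peg3) and 1.49 (Grb10), and the other genes reach -3.22 (Nnat).

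Genes that act with the members were also measured. The counts of calls in each list below stand beside 9.35% of all tested genes called higher and 6.81% called lower. Without control 2 those shares were 22.6% and 14.5%. In the list of insulin and IGF receptor signalling, the pathway on which Grb10 acts, 5 of 18 tested genes rose, 2 fell and 11 did not pass (median 0.28). With 1 library left out, 1 to 8 were called higher and 0 to 4 lower, the most without control 2, and without any other single library none was called lower. Igfbp3 and Igfbp4, which encode binding proteins of the IGFs, rose by 1.77 ± 0.19 and 1.30 ± 0.22 (limma, adjusted p = 0.00291 and 0.0103), and Igf1 rose by 1.0 ± 0.21 (adjusted p = 0.0214). Igfbp3 was called under all 17 other settings and Igfbp4 under 16, while Igf1 lost the call under 5, among them without any 1 of the creeping fat libraries, with adjusted p of up to 0.0893. Shc1, another adaptor of the receptors, and Igfbp7 also rose, and each lost the call under 6 of 17 settings. Grb14, which encodes an adaptor of the same family as Grb10, had 3.20, 2.55 and 2.01 FPKM in creeping fat, against 6.63, 4.77 and 10.6 FPKM in controls, and fell by 1.17 ± 0.28 (adjusted p = 0.0317). That call was lost under 7 of 16 settings, with adjusted p of up to 0.116. Akt2, a kinase downstream of the insulin receptor, also fell, a call lost under 7 of 17 settings with adjusted p of up to 0.135, and Igfbp5 did not pass (0.13 ± 0.32).

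Among 14 tested CDK inhibitors and regulators of the G1 phase, the setting in which p57Kip2 acts, 2 rose and 4 fell (median 0.12). With 1 library left out, 0 to 5 were called higher and 1 to 4 lower, the most without control 2. Without control 2, 22.6% of all tested genes were called higher and 14.5% lower. The kinase genes Cdk4 and Cdk6 rose by 1.01 ± 0.18 and 0.88 ± 0.18 (limma, adjusted p = 0.0116 and 0.0201). The call was lost under 2 of 17 other settings for Cdk4 and under 6 for Cdk6, whose adjusted p reached 0.0872 and which passed with 1 library left out only when that was control 2. Cdkn2c, another CDK inhibitor gene, had 9.62, 12.0 and 12.1 FPKM in creeping fat, against 42.2, 21.5 and 46.5 FPKM in controls, and fell by 1.56 ± 0.29 (adjusted p = 0.015). Cdkn1a, which encodes the p21 relative of p57Kip2, fell by 0.78 ± 0.21 (adjusted p = 0.0465). Ccnd2 and Rb1 fell as well. Rb1 was called under all 17 other settings, while Cdkn2c and Ccnd2 lost the call under 4 each and Cdkn1a under 8. Ccnd1 did not pass (0.09 ± 0.36), and single controls decided its sign and call: it was higher without control 2 (0.53, adjusted p = 0.0174) and stood at -0.18 without control 1 and -0.075 without control 3.

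Of 13 tested genes of Notch signalling, to which DLK1 is structurally related, 3 fell (median -0.31): Nrarp by 0.80 ± 0.21, Notch4 by 0.75 ± 0.18 and Dll4 by 0.61 ± 0.16 (limma, adjusted p = 0.0419, 0.037 and 0.0482). These calls were lost under 9, 6 and 10 of 17 other settings for Nrarp, Notch4 and Dll4, and with 1 library left out their adjusted p reached 0.157, 0.138 and 0.175. None of the 3 was called without any 1 of creeping fat 1, creeping fat 3, control 1 and control 3. Notch2, an abundant receptor gene that did not pass (0.34, adjusted p = 0.425), was called higher without control 2 (0.602, adjusted p = 0.0197). Hes1 and Rbpj, not called with all 6 libraries, were called higher without control 2 as well. Hes1 was also called higher under quantile normalization and without both creeping fat 2 and control 2. Jag2 was called lower under quantile normalization and median ratio scaling. Calls without control 2, here and below, stand beside 22.6% of all tested genes called higher and 14.5% called lower. Notch4 and Dll4 are known from vessel endothelium. Of the 12 tested endothelial markers 2 fell and 10 were not called (median -0.50), and 0 to 3 fell with 1 library left out. The shares of these markers overlapped, at 0.0876% to 0.127% in creeping fat and 0.12% to 0.163% in controls. The part of endothelial cells in the changes of Notch genes was not tested. Of 5 tested genes of the necdin and MAGE family Maged2 rose, by 1.86 ± 0.26 (adjusted p = 0.00582), at 21.9, 32.9 and 22.9 FPKM in creeping fat against 8.26, 4.27 and 7.00 FPKM in controls. Without control 2 Mageh1 and Nsmce3 were called higher too. Of 6 tested genes derived from retrotransposons, the class of Peg10, 2 rose: Rtl3 and, with the limit of strand given above, Rtl1. Rtl8b did not pass (-0.23 ± 0.34). Rtl8b was called lower without control 2 (-0.641, adjusted p = 0.00803) and without both creeping fat 2 and control 2 (-0.678, adjusted p = 0.0127), and stood at 0.024 without control 3. Rtl8a was also called lower without control 2 and without both creeping fat 2 and control 2. Rtl3 had 3.87, 5.26 and 6.68 FPKM in creeping fat, against 0.833, 0.575 and 0.899 FPKM in controls, and rose by 1.81 ± 0.20 (adjusted p = 0.0033). With all 6 libraries, none of 14 tested genes that maintain imprints, such as Trim28 and Dnmt1, was called, either by limma on FPKM or by voom. Before adjustment 1 of them, Trim28, was higher at a p under 0.05 (0.47 ± 0.17, adjusted p = 0.113), and Hnrnpu stood at -0.05 ± 0.16. Without control 2, and without both creeping fat 2 and control 2, 5 were called higher: Trim28 (0.609 and 0.567, adjusted p = 0.0106 and 0.0262), Dnmt1, Dnmt3a, Uhrf1 and Arid4a. Calls over all tested genes grew under both settings too, to 2896 and 2713 higher. With no filter on low values Tet1 was called higher.

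**Figure D4:**
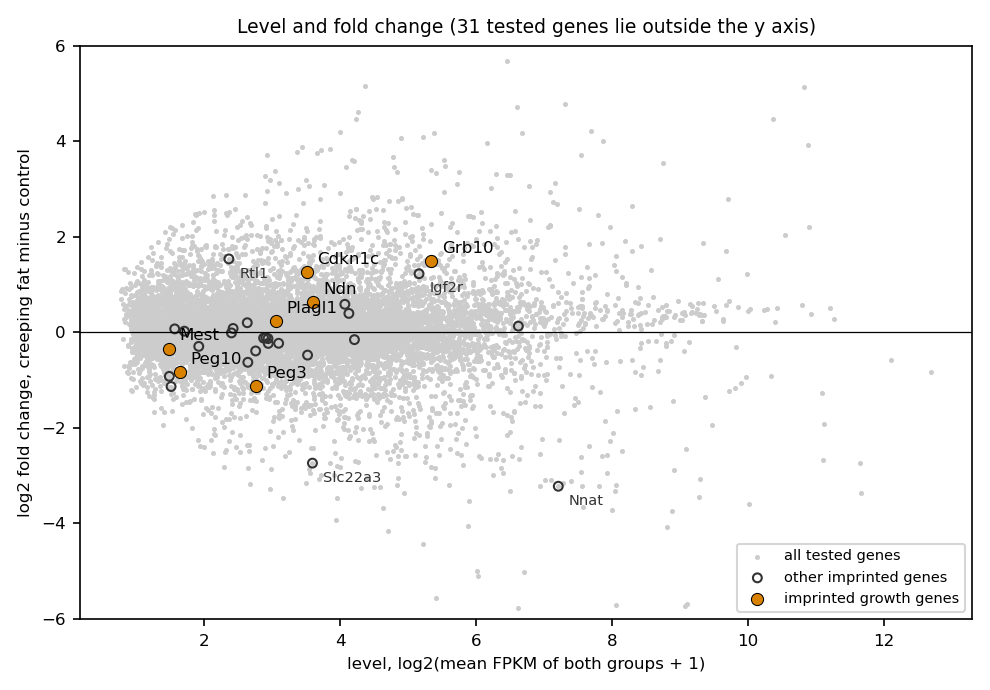
Log2 fold change (y axis, creeping fat minus control) against level (x axis, log2 of the mean FPKM of both groups plus 1) for all tested genes (grey), the other imprinted genes whose expressed copy is known (open circles) and the 7 tested imprinted growth genes (orange). Of the tested genes 31 lie outside the plotted range. The members lie among other genes of their levels, from -1.13 (Peg3) to 1.49 (Grb10).

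Markers of several cell types moved between the groups beside the members. Of all tested genes 9.35% were called higher and 6.81% lower, or 22.6% and 14.5% without control 2. All 12 fibrillar matrix genes rose, making up 3.05% to 4.44% of all FPKM in creeping fat and 0.291% to 0.488% in controls. Of the 14 adipose progenitor and fibroblast genes 6 rose and 1 fell, with 0.692% to 0.968% in creeping fat and 0.238% to 0.349% in controls. Of 12 macrophage genes 9 rose, with 1.05% to 1.71% in creeping fat and 0.235% to 0.536% in controls, and 10 of 12 adipocyte genes fell. The 8 measured imprinted growth genes made up 0.0256% to 0.032% in creeping fat and 0.0131% to 0.0207% in controls, and Grb10 alone held 52.2% to 61.3% of their summed FPKM in creeping fat and 35.5% to 39.0% in controls. Without Grb10 the other 7 overlapped between the groups, at 0.012% to 0.0124% in creeping fat and 0.00838% to 0.0134% in controls. All 10 seminal vesicle genes rose. Of 7 tested prostate genes 5 rose and 1, Mme, fell, and voom called 3 higher and 1 lower. The 12 genes of the prostate list held 0.26% to 0.421% in creeping fat and 0.00985% to 0.0157% in controls, where Defb50 was at 0. Of 16 pancreatic acinar genes 12 fell. When 1 library was left out, 10 to 12 matrix, 4 to 9 progenitor, 4 to 11 macrophage and 10 seminal vesicle genes were called higher, and 7 to 11 adipocyte and 3 to 16 acinar genes lower. The 3 acinar calls came without any 1 of creeping fat 1, creeping fat 3, control 1 and control 3, and the 4 macrophage calls without any 1 of creeping fat 1, creeping fat 3 and control 3. Islet genes stayed at 0.00246% or less in each library, with Slc30a8 at 0 throughout. The shares of smooth muscle genes overlapped, at 0.167% to 0.282% in creeping fat and 0.0915% to 0.235% in controls. The part of these cell types in the changes of Grb10, Cdkn1c, Ndn and Peg3 was not tested. With values rescaled without the seminal vesicle, prostate and pancreatic acinar genes, the log2 fold changes were 1.52 for Grb10, 1.28 for Cdkn1c, 0.65 for Ndn and -1.11 for Peg3, of which the last was no longer called.

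**Figure D5:**
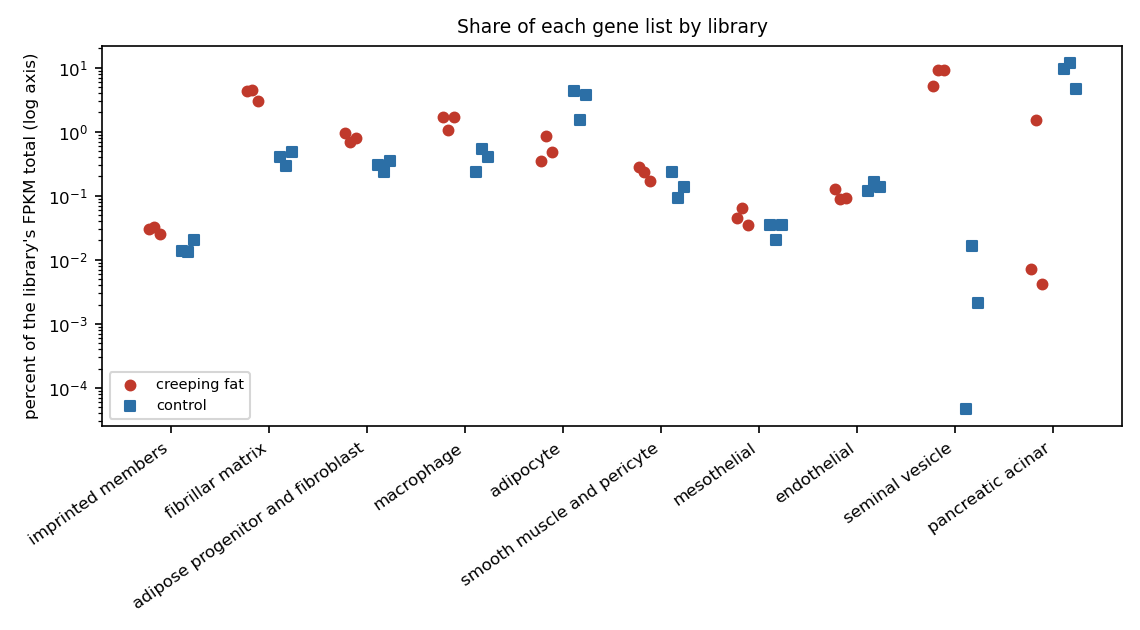
Share of each library's FPKM total (y axis, percent, log scale) held by the imprinted growth genes and by 9 marker lists in creeping fat (red circles, left) and control (blue squares, right) libraries. The imprinted growth genes, fibrillar matrix, progenitor, macrophage and seminal vesicle lists are higher in every creeping fat library, and the adipocyte and pancreatic acinar lists lower. Without Grb10 the other 7 imprinted growth genes overlap, at 0.012% to 0.0124% in creeping fat and 0.00838% to 0.0134% in controls.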

How the data were processed

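The authors deposited 1 table of FPKM values for 22134 gene symbols in 6 libraries; the submitters' processing notes name mm10. Which aligner, counter, gene models and strand setting were used is not given in the sources used here. Libraries were made from total RNA with ribosomal RNA removed, per the labels' protocols. Since FPKM scale with 1 over the library's total, an abundant class of transcripts lowers all others.

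The 12812 genes that reached 1 FPKM in 3 libraries or more were compared on log2(FPKM + 1) in limma 3.58.1 (R 4.3.3; lmFit, eBayes with a trend, group as the only term, two-sided), with Benjamini-Hochberg adjustment over all of them. With 3 libraries against 3, the smallest p of an exact two-sided permutation test is 0.1, and no such test was run. Whole reads, within 0.002 reads, were recovered for the 18714 genes above 0 from the steps of low values and from gene lengths; the smallest length that works is taken, so reads and lengths of a gene can be too small by a common factor. Floors of 3 reads cover counting error only. The fit and the recovery were tested on simulated data. Members and lists were chosen with earlier results of these data known. Named genes were all members, up to 3 called genes per direction and 2 abundant uncalled genes of each list, and neighbours of members; Osbpl5, Blcap, Pon3, Ppp1r9a, Shc1, Igfbp7 and Cdkn1a were added after their values were seen. Coordinates are from RefSeq (GRCm38.p6), whose promoter table also supplied the sequences. Same-numbered libraries did not deviate together (r = -0.181, -0.18 and -0.081 across genes). Libraries of unlike number gave r of -0.138 to 0.243. These values show no pairing by number, but so few libraries cannot exclude one.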

Additional observations from a re-analysis of the deposited data

How the results depend on the processing

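Grb10 and Cdkn1c were called higher under all 17 other settings. Over 52 genes, 877 values under other settings gave 720 with the same direction and call, 126 that lost the call, 16 that gained it and 15 of the other sign. The 720 include genes that were called neither in the main fit nor under the other setting. They are therefore not a count of calls that were kept. The limits are set by 3 libraries a group and by control 2. Over all genes, 1198 were called higher and 872 lower; with 1 library left out the counts were 576 to 2896 and 287 to 1857, the highest without control 2, and with both creeping fat 2 and control 2 left out 2713 and 1731. The counts of members called lower, 1 in the main analysis, were 0 to 2 with 1 library left out, 0 with no filter on low values, 0 after rescaling without the seminal vesicle, prostate and pancreatic acinar lists, and 2 with both creeping fat 2 and control 2 left out; the cause was not tested. With the replicate number as a block, 636 genes were called higher and 378 lower, with 0 members called lower. Whether the numbers pair the libraries is not known. Voom on recovered reads was chosen after the data were seen. Without both creeping fat 2 and control 2 the sign turned for Plagl1 (-0.22), Gnas (-0.041), Hnrnpu (0.048) and Igfbp5 (-0.17). With 1 library left out the values ranged from -0.26 to 0.63 for Plagl1, from -0.039 to 0.19 for Gnas, from -0.16 to 0.066 for Hnrnpu, from -0.24 to 0.39 for Igfbp5, from -0.18 to 0.53 for Ccnd1 (called higher without control 2), from -0.64 to 0.024 for Rtl8b, from -0.57 to 0.26 for Igf2 and from -0.57 to 0.057 for Sgce.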
